A study of Homo sapiens with 4 samples.

Results

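The NRF2 antioxidant genes and the ferritin chains were examined in HCT116 cells with and without suppression of LINC00152. The set holds 10 genes, chosen by name: the transcription factor gene NFE2L2, its repressor KEAP1, the NRF2 targets NQO1, HMOX1, GCLM, GCLC, TXNRD1 and SRXN1, and the ferritin genes FTH1 and FTL. All 10 were among the 19974 gene symbols of each deposited table, and they were chosen with earlier results of these data known. HCT116 is an established human colorectal carcinoma line. Cells received 100 nM of a non-targeting control siRNA (si-NC) or of an siRNA against LINC00152 (si-152), were kept for 36 h, and gave 2 biological replicates per group, so both groups went through transfection and no untransfected cells enter the comparison. The values are read as FPKM, which are fragments scaled by transcript length and sequencing depth, so levels may be compared between genes.

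NRF2, the protein of NFE2L2, is held in the cytoplasm by KEAP1, which hands it to a CUL3 ubiquitin ligase for degradation. Oxidants and electrophiles modify KEAP1, and NRF2 then accumulates, pairs with a small MAF protein and binds antioxidant response elements of genes for glutathione synthesis, quinone reduction, thioredoxin reduction and heme breakdown. NRF2 activity is therefore set largely at the protein level, and the RNA of its targets is its usual readout. Heme breakdown releases iron, which ferritin, a shell built from heavy (FTH1) and light (FTL) chains, stores. Ferritin is also controlled in translation, through an iron-responsive element in the 5′ end of both messages that iron regulatory proteins bind when iron is scarce.

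In GENCODE v29 (GRCh38), NFE2L2 lies at chr2:177227595-177392697, KEAP1 at chr19:10486120-10503741, NQO1 at chr16:69706996-69726951, GCLM at chr1:93885205-93909456, GCLC at chr6:53497341-53616970, SRXN1 at chr20:646615-653370 and FTH1 at chr11:61959718-61967660, all on the minus strand. HMOX1 lies at chr22:35380361-35394214, TXNRD1 at chr12:104215779-104350305 and FTL at chr19:48965301-48966878, on the plus strand. KEAP1 and FTL are the only 2 of the 10 on the same chromosome.

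The iron-responsive elements of both ferritin messages are shown because they are the sequence feature that the 2 chains share. They were found in the GENCODE v29 transcripts as a C, a stem of 5 pairs (G with T allowed) and a loop of the letters CAGTGN, on the transcript strand. Capitals mark the 6-base loop. The FTH1 element lies in exon 1 on the minus strand at chr11:61967574-61967602 of GRCh38, and the FTL element in exon 1 on the plus strand at chr19:48965335-48965363.
FTH1: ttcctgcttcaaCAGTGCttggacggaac
FTL: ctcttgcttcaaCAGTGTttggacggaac
Of the 29 bases, 26 were identical. The same letters with their stem were present in the first 200 bases of a protein-coding transcript in 37 of 19669 genes (0.188%), and FTH1 and FTL were the 2 of the 10 genes among them.

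The core letters of the antioxidant response element, TGACNNNGC, were searched on both strands in the RefSeq promoter windows (GRCh38.p14, 250 bases before to 50 after a start site). Windows were found for 8 of the 10 genes, 11 windows in all, and HMOX1 and FTH1 had none. GCLM, KEAP1 and TXNRD1 held the letters, in 4 windows, against 13.3% of the 35116 windows of all genes. A match in these letters is a description and not a bound site. Sequence outside the windows was not searched, so genes without a match may hold the letters there. The 3 genes held 6 matches, of which 3 are shown: those of GCLM and KEAP1 with the same core, and 1 of TXNRD1. Whether these letters bear on the levels in these libraries was not tested. Capitals mark the 9 matched letters, and none of the 3 holds the AP-1 letters TGANTCA. They lie at chr1:93909450-93909470 (plus strand), chr19:10502788-10502808 (plus strand) and chr12:104215674-104215694 (plus strand), with centres at -30, -27 and -95 bases from the annotated start site.
GCLM: agacaaTGACTAAGCagaaat
KEAP1: tcaccaTGACTAAGCagagcc
TXNRD1: gggctaTGACTTCGCtgttgt

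The summed FPKM of the libraries ran from 424754 in si-152 replicate 1 to 534311 in si-NC replicate 2, and the number of reads is unknown. LINC00152 was not analysed here, so the labels were not checked against the targeted RNA. Of 10 markers of colon epithelium, EPCAM (190.5 to 239.5 FPKM), CDH1, KRT8, KRT18, KRT19 and CDX2 were present, KRT20, CDX1 and LGALS4 were listed at 0 in all 4 libraries, and VIL1 reached at most 0.0567 FPKM. Of 5 markers of other cells, the leukocyte marker PTPRC and the fibroblast marker DCN were listed at 0, while COL1A1 was at 7.02 to 7.98 FPKM. Libraries of the same replicate number resembled each other in several of the genes below, and those values are given with them. In a bulk culture, fewer cells that express a gene and less RNA per cell cannot be told apart.

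All 10 genes were expressed, from FTH1 at the top to GCLM at the bottom. In si-NC the order of the mean levels was FTH1, FTL, NQO1, TXNRD1, NFE2L2, SRXN1, KEAP1, HMOX1, GCLC and GCLM. The replicate ranges of NFE2L2 and SRXN1 overlapped in si-NC, as did those of KEAP1 and HMOX1, so the order within these pairs was not larger than the spread. In si-152 SRXN1 stood before NFE2L2, and the ranges of HMOX1 and GCLC overlapped. FTH1 ranked as gene 2 or 3 of each library and FTL between 10 and 20, and the 10 genes together made up 1.88% to 2.24% of the summed FPKM.

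**Figure D1:**
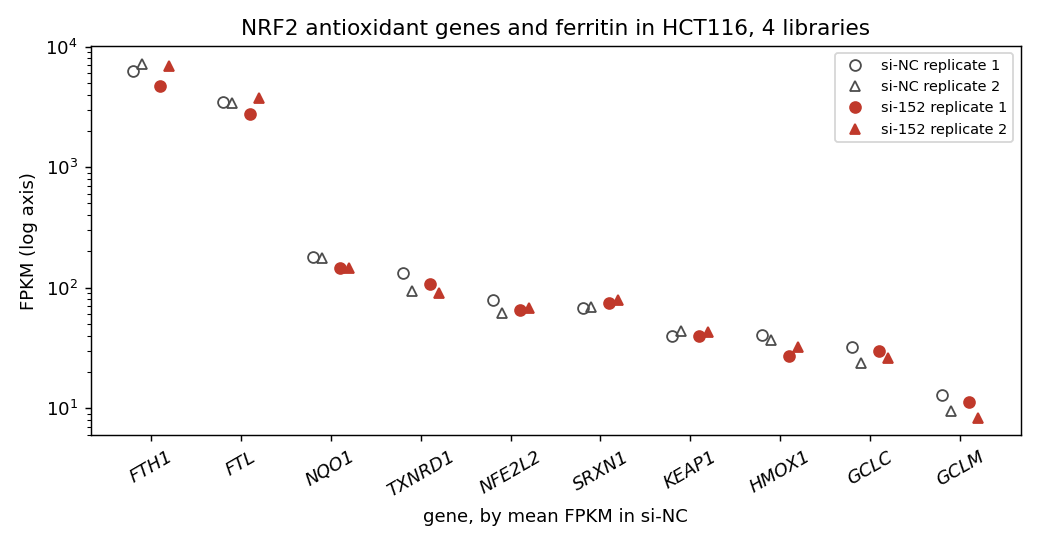
Level of each gene in each library, in FPKM on a log axis, with genes ordered by their mean in si-NC. Open grey symbols are si-NC, filled red symbols are si-152, circles are replicate 1 and triangles replicate 2. Both si-152 points lie below both si-NC points for NQO1 and HMOX1 and above them for SRXN1, and for the other 7 genes the groups overlap.

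The question was whether suppression of LINC00152 shifted this pathway. None of the 10 genes passed the test. Log2(FPKM + 1) was compared with limma over the 11222 genes that reached 1 FPKM in 2 or more libraries, and all 10 genes reached it in all 4. At an unadjusted p under 0.05 limma called 0 of the 10, where 4.38% of all tested genes were called, and at an adjusted p under 0.05 it called 0 of the 10, where 0.0178% were. The adjusted p of each of the 10 genes was 0.9996 by limma. A p that misses the threshold does not show that the levels were alike, so the 95% interval of each difference is given.

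Under si-152 the factor and its repressor each stayed inside their si-NC range. NFE2L2 was at 79.5 and 61.97 FPKM under si-NC against 64.8 and 67.4 FPKM under si-152, so both si-152 values fell inside the si-NC range. The difference of the means was -0.09 on the log2 scale (standard error of the difference, SE, 0.18), and the interval reached from 0.71 to 1.25 times the si-NC level. KEAP1, the adaptor that presents NRF2 for degradation, was at 39.4 and 43.9 FPKM under si-NC against 39.7 and 42.9 FPKM under si-152. The si-152 values of KEAP1 again lay inside the si-NC range, giving a log2 fold change of -0.01 (SE 0.16) and an interval of 0.768 to 1.28 times. Within a library, where a factor common to all genes cancels, the ratio of NFE2L2 to KEAP1 was 2.02 and 1.41 in si-NC and 1.63 and 1.57 in si-152. This ratio differed more between the si-NC replicates than between the groups (exact permutation p = 1.0, two-sided, where 2 against 2 libraries cannot go below 0.333).

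NQO1 and HMOX1 were the 2 genes whose si-152 libraries both lay below both si-NC libraries, where 13.9% of all tested genes did so. NQO1, which reduces quinones by a pair of electrons and is often used to read NRF2 activity, was at 181.2 and 176.3 FPKM under si-NC (178.8 ± 3.45, SD, n = 2) against 145.9 and 146.4 FPKM under si-152 (146.1 ± 0.351, SD, n = 2). The replicates of NQO1 nearly coincided in each group, and its difference was alike in both same-numbered pairs, at -0.31 and -0.27 on the log2 scale. The log2 fold change of NQO1 was -0.29 (SE 0.18, unadjusted p = 0.142 by limma), an estimate of 0.818 times the si-NC level with an interval of 0.618 to 1.08. HMOX1, the inducible heme oxygenase, was at 40.4 and 36.8 FPKM under si-NC against 27.0 and 32.4 FPKM under si-152. Its pairs differed in size, at -0.56 in replicate 1 and -0.18 in replicate 2. HMOX1 had the lowest log2 fold change of the 10, -0.37 (SE 0.17, unadjusted p = 0.0574 by limma), or 0.773 times with an interval of 0.592 to 1.01. Among all tested genes 4.6% had a lower log2 fold change than HMOX1 and 8.05% a lower one than NQO1. The call for HMOX1 depended on the setting. Its unadjusted p by limma was under 0.05 with size factors (0.0473), quantile normalization (0.0449) and the replicate number as a block (0.0164). In the other alternatives that kept all 4 libraries it ran up to 0.0791. With a library left out the log2 fold change of HMOX1 ran from -0.50 (without si-152 replicate 2) to -0.24 (without si-152 replicate 1). With the block NQO1 was also under 0.05 (0.0296), and so were 1893 of the 11222 tested genes.

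SRXN1, the sulfiredoxin that repairs overoxidized peroxiredoxins, was the one gene with both si-152 libraries above both si-NC libraries, where 16.5% of all tested genes were so placed. It was at 68.1 and 68.5 FPKM under si-NC against 74.6 and 78.8 FPKM under si-152. Both pairs were higher, by 0.13 and 0.20 on the log2 scale. The log2 fold change was 0.16 (SE 0.16) and its interval ran from 0.868 to 1.45 times. NQO1 and SRXN1, both NRF2 targets, thus had estimates of opposite sign, and neither passed the main test, which has no pairing term.

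**Figure D2:**
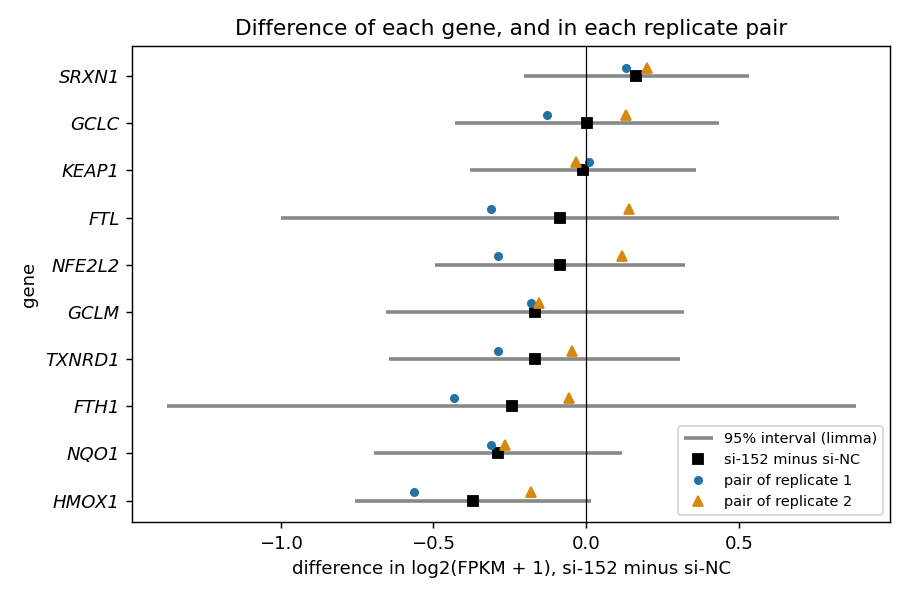
Difference in log2(FPKM + 1) between si-152 and si-NC for each gene, with black squares for the estimate and grey bars for its 95% interval from limma. Blue circles and orange triangles are the differences within the pairs of replicate 1 and replicate 2. Every interval includes 0, and those of FTH1 and FTL are the widest. The widths rest in part on the variance of other genes of like level.

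The glutathione and thioredoxin genes differed more between replicate 1 and replicate 2 than between the siRNAs. GCLC and GCLM encode the catalytic and the modifier subunit of glutamate-cysteine ligase, the first step of glutathione synthesis. GCLM was at 12.9 and 9.44 FPKM under si-NC against 11.3 and 8.37 FPKM under si-152. GCLC was at 32.4 and 23.7 FPKM under si-NC against 29.6 and 26.1 FPKM under si-152. TXNRD1, the cytosolic thioredoxin reductase, was at 132.0 and 93.4 FPKM under si-NC against 107.9 and 90.3 FPKM under si-152. In each of these 3 genes replicate 1 was higher than replicate 2 in both groups, and the groups overlapped. Replicate 2 minus replicate 1 was -0.42 and -0.39 for GCLM, -0.44 and -0.18 for GCLC and -0.49 and -0.25 for TXNRD1 in si-NC and si-152, on the log2 scale. The differences between the groups were smaller, with log2 fold changes of -0.17 for GCLM (SE 0.22), 0.0019 for GCLC (SE 0.19) and -0.17 for TXNRD1 (SE 0.21). The intervals were 0.635 to 1.25 times for GCLM, 0.742 to 1.35 times for GCLC and 0.64 to 1.24 times for TXNRD1. With KEAP1, these were the 4 of the 10 genes in which both replicate differences exceeded the group difference in size, which held for 50.7% of all tested genes.

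The subunits of the ligase kept a near-fixed ratio in si-NC. GCLM was at 0.399 and 0.398 of the GCLC level in the si-NC libraries, and at 0.381 and 0.321 in the si-152 libraries. Both si-152 ratios were lower, with a difference of -0.19 on the log2 scale. The spread lay in si-152 replicate 2, and the exact permutation test gave p = 0.333 (two-sided), the smallest that 2 against 2 libraries allow.

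**Figure D3:**
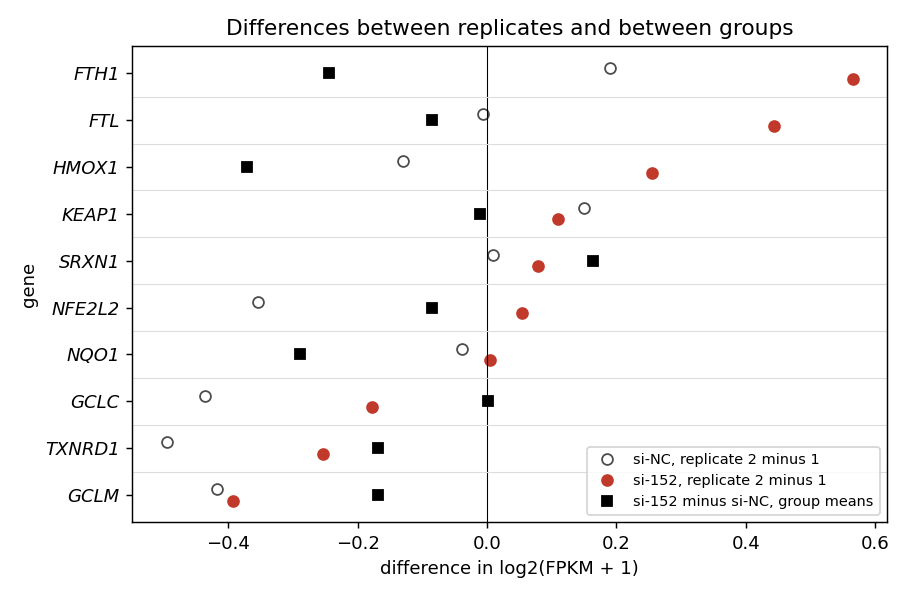
For each gene, the difference between replicate 2 and replicate 1 in log2(FPKM + 1) is shown in si-NC (open circles) and si-152 (red circles), with the difference between the group means (black squares). GCLM, TXNRD1 and GCLC are lower in replicate 2 of both groups by 0.18 or more, and FTH1 and KEAP1 are higher in replicate 2 of both groups by 0.11 or more.

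The ferritin chains were among the most abundant messages of the cells, and their values turned on a single library. FTH1 was at 6325 and 7217 FPKM under si-NC against 4689 and 6936 FPKM under si-152. FTL was at 3444 and 3428 FPKM under si-NC against 2776 and 3776 FPKM under si-152. For both chains si-152 replicate 1 was the lowest of the 4 libraries, and si-152 replicate 2 lay inside the si-NC range for FTH1 and above it for FTL. The log2 fold change was -0.24 for FTH1 (SE 0.50, interval 0.386 to 1.84 times) and -0.09 for FTL (SE 0.41, interval 0.5 to 1.77 times). These widths rest on the variance that limma fits to genes of like level as well as on the replicates. Without that trend the unadjusted p by limma was 0.305 for FTH1, against 0.638 with it, and 0.684 for FTL, against 0.838. The pairs gave -0.43 and -0.06 for FTH1 and -0.31 and 0.14 for FTL. Without si-152 replicate 1 the log2 fold change was 0.04 for FTH1 and 0.14 for FTL, so the sign of both estimates rested on that library, which also had the lowest summed FPKM. With quantile normalization the estimate was -0.07 for FTH1 and 0.10 for FTL. That setting gives equal ranks equal values in all libraries, and FTH1 ranked as gene 2 or 3 in each, so it can keep little of a difference in FTH1. As a share of the summed FPKM, FTH1 was at 1.37% and 1.35% in si-NC and at 1.1% and 1.37% in si-152, and FTL was at 0.744% and 0.642% in si-NC and at 0.654% and 0.745% in si-152. The FTL share of si-152 replicate 1 was thus within the si-NC range, whereas its FTH1 share was below it.

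In the ratio of the heavy to the light chain message a factor common to all genes of a library cancels. It was 1.84 and 2.11 in si-NC (1.97 ± 0.19, SD, n = 2) and 1.69 and 1.84 in si-152 (1.76 ± 0.104, SD, n = 2). FTH1 exceeded FTL in each library, and the groups met at 1.84 after rounding (exact permutation p = 0.667, two-sided, smallest possible 0.333). GENCODE v29 annotates 25 pseudogenes named after FTH1 and 16 named after FTL. The tables give a value for 1 of these, so how reads shared with the copies were counted is not known, and the absolute levels of both chains are uncertain for that reason.

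Taken by direction, 8 of the 10 log2 fold changes were below 0, where 45.8% of all tested genes were. The median of the 10 was -0.13, against 0.02 over all tested genes. In the pair of replicate 1 the median was -0.29 for the 10 genes and -0.03 for all, and in the pair of replicate 2 it was -0.04 and 0.07. Both pairs had the same sign in 6 of the 10 genes, a share close to the 63.0% of all tested genes. Of these 6, NQO1, HMOX1, GCLM, TXNRD1 and FTH1 were lower in both pairs and SRXN1 was higher. With quantile normalization the pair of replicate 2 was at 0.0 for FTH1, which left 5 of the 10. FTH1 held the same rank in both libraries of that pair, and this normalization gives equal ranks equal values. NFE2L2, KEAP1, GCLC and FTL went in opposite directions. The directions were not stable, since 4 of the 10 genes took the other sign without si-152 replicate 1, 3 without si-NC replicate 1 and 2 with quantile normalization. The median of the 10 genes was -0.02 without si-NC replicate 1 and -0.24 without si-NC replicate 2, where it was 0.07 and -0.04 over all tested genes, and it was below 0 in all 11 alternatives.

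The pattern of a gene over the 4 libraries was compared by the Euclidean distance between log2(FPKM + 1) values centred on each gene's own mean. Among the 10 genes the smallest distance was that of GCLM and TXNRD1 (0.11). GCLC was also nearest to TXNRD1 (0.18), NQO1 and HMOX1 were nearest to each other (0.21), as were KEAP1 and SRXN1 (0.20) and FTH1 and FTL (0.23), and NFE2L2 was nearest to GCLC (0.20). Over all tested genes, the 3 nearest to NFE2L2 were TERF2 (0.014), GOLGA5 (0.0204) and LRRC1 (0.0228), and the 3 nearest to FTH1 were ATP5D (0.0277), MEF2B (0.0391) and BUD31 (0.0391). With 4 libraries such distances are descriptions of these libraries.

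The wider pathway was read through 5 lists written by hand, with 91 genes tested of 106 listed. The lists were written with earlier results of these data known, so their counts are descriptions. Over all tested genes 45.8% had a log2 fold change below 0 and the median was 0.02, beside which each list below may be set. At an unadjusted p under 0.05 limma called 7 of the 91 (7.69%), 1 higher and 6 lower, against 4.38% of all tested genes, and at an adjusted p under 0.05 it called 0. Isocitrate dehydrogenase IDH1, which supplies NADPH in the cytosol, had the lowest p of the 7. IDH1 was at 111.0 and 104.8 FPKM under si-NC against 57.9 and 63.8 FPKM under si-152, without overlap. Its log2 fold change was -0.82 (SE 0.17, unadjusted p = 0.000789, adjusted p = 0.4285 by limma), and the unadjusted p stayed at or under 0.00578 in all 11 alternatives. The pairs of IDH1 were -0.93 and -0.71. Over all genes IDH1 thus did not pass adjustment.

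Of the 22 tested other NRF2 targets, 15 were lower and 7 higher in si-152, with a median log2 fold change of -0.13. Besides IDH1, the list held 2 genes called at the unadjusted p, both reductases of carbonyl groups. CBR3 was at 2.83 and 3.85 FPKM under si-NC against 1.09 and 2.14 FPKM under si-152, giving a log2 fold change of -0.75 (SE 0.25, unadjusted p = 0.0135, adjusted p = 0.904 by limma). AKR1B1 was at 31.7 and 35.2 FPKM under si-NC against 24.1 and 26.3 FPKM under si-152, giving a log2 fold change of -0.39 (SE 0.17, unadjusted p = 0.0400, adjusted p = 0.9996 by limma). The call for CBR3 was lost without si-152 replicate 1 (unadjusted p = 0.171) and without si-NC replicate 2 (0.0512), and that for AKR1B1 whichever library was left out (up to 0.211) and without the variance trend (0.0578). The most abundant genes of the list gave no call, with BLVRB, a biliverdin reductase, at 172.7 and 262.3 FPKM under si-NC against 177.8 and 225.0 FPKM under si-152, and TKT, the transketolase of the pentose phosphate pathway, at 150.8 and 172.7 against 177.4 and 175.5 FPKM. CBR1, AKR1B10, AKR1C1, AKR1C2 and AKR1C3 were too low to be tested.

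Of the 22 tested genes of glutathione synthesis and use, 21 had a log2 fold change below 0, with a median of -0.14. The count moved with the libraries. Without si-152 replicate 1, 10 of the 22 were below 0 and the median was 0.02, where it was also 0.02 over all tested genes. Without si-152 replicate 2, 22 were below 0 and the median was -0.34, against 0.02 over all tested genes. Without si-NC replicate 1, 21 were below 0 and the median was -0.26, against 0.07 over all tested genes. Without si-NC replicate 2, 15 were below 0 and the median was -0.09, against -0.04 over all tested genes. With quantile normalization 17 were below 0. In the other alternatives that kept all 4 libraries 21 were, of 24 tested where no filter was used. GSTO1 and MGST2, both transferases that use glutathione, were the 2 genes called at the unadjusted p. GSTO1 was at 112.5 and 145.4 FPKM under si-NC against 78.2 and 99.6 FPKM under si-152, giving a log2 fold change of -0.53 (SE 0.21, unadjusted p = 0.0284, adjusted p = 0.9996 by limma). MGST2 was at 28.0 and 32.2 FPKM under si-NC against 19.6 and 21.8 FPKM under si-152, giving a log2 fold change of -0.52 (SE 0.17, unadjusted p = 0.013, adjusted p = 0.903 by limma). Without si-152 replicate 1 both lost the call, with an unadjusted p of 0.143 for GSTO1 and 0.069 for MGST2, and without si-NC replicate 2 they had 0.236 and 0.0984. GSTO1 also lost the call without a filter (unadjusted p = 0.0511). The most abundant members were GSTP1, at 662.7 and 719.9 FPKM under si-NC against 548.4 and 748.7 FPKM under si-152, and GPX4, the peroxidase of lipid hydroperoxides, at 476.2 and 565.4 against 389.8 and 528.8 FPKM. In both of these si-152 replicate 1 was the lowest library, as it was for the ferritin chains.

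The thioredoxin, peroxiredoxin and superoxide list was split evenly, with 9 of 18 higher and 9 lower and a median of -0.0056. PRDX4, the peroxiredoxin of the endoplasmic reticulum, was the only gene of the 5 lists called higher at the unadjusted p. It was at 85.8 and 122.0 FPKM under si-NC against 152.1 and 195.2 FPKM under si-152, with pairs of 0.82 and 0.67. Its log2 fold change was 0.75 (SE 0.22, unadjusted p = 0.00829, adjusted p = 0.807 by limma), and the call was lost without si-NC replicate 1 (unadjusted p = 0.122). The abundant peroxiredoxins gave no call, with PRDX1 at 689.7 and 796.8 FPKM under si-NC against 644.0 and 788.1 FPKM under si-152, and PRDX5 at 574.8 and 783.8 against 441.7 and 683.0 FPKM.

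The list of NRF2 regulators holds ligase parts, small MAF partners, BACH1 and related factors. A shared direction in it is therefore not a reading of NRF2 activity. Of its 12 genes, 11 had a log2 fold change above 0, with a median of 0.16, and none was called by limma at an unadjusted p under 0.05. With either si-152 library left out the number above 0 was 9. Without si-NC replicate 2 the median of the list was 0.0449, where it was -0.036 over all tested genes. Without si-NC replicate 1 it was 0.284, where it was 0.0739 over all tested genes. In this list 1 gene was called in 6 of the 11 alternatives. SQSTM1, the autophagy receptor that binds KEAP1, was at 433.2 and 440.5 FPKM under si-NC against 474.4 and 502.8 FPKM under si-152, and the related factor NFE2L1 was at 120.3 and 101.3 against 131.3 and 116.6 FPKM. Iron genes were divided, with 9 of 17 above 0 and a median of 0.0044, and 4 of 17 above 0 without si-NC replicate 2. The 1 gene called was HMOX2, the constitutive heme oxygenase, at 1.21 and 5.90 FPKM under si-NC against 0.623 and 1.30 FPKM under si-152, with overlapping groups. Its log2 fold change of -1.02 (SE 0.44, unadjusted p = 0.0446 by limma) was -0.19 without si-NC replicate 2 (unadjusted p = 0.545), and the call was also lost under both scalings and without a filter. PCBP1 and PCBP2, which carry iron to ferritin, were the most abundant, at 177.0 and 195.9 against 179.9 and 204.0 FPKM for PCBP1 and at 100.5 and 97.3 against 86.8 and 87.3 FPKM for PCBP2.

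**Figure D4:**
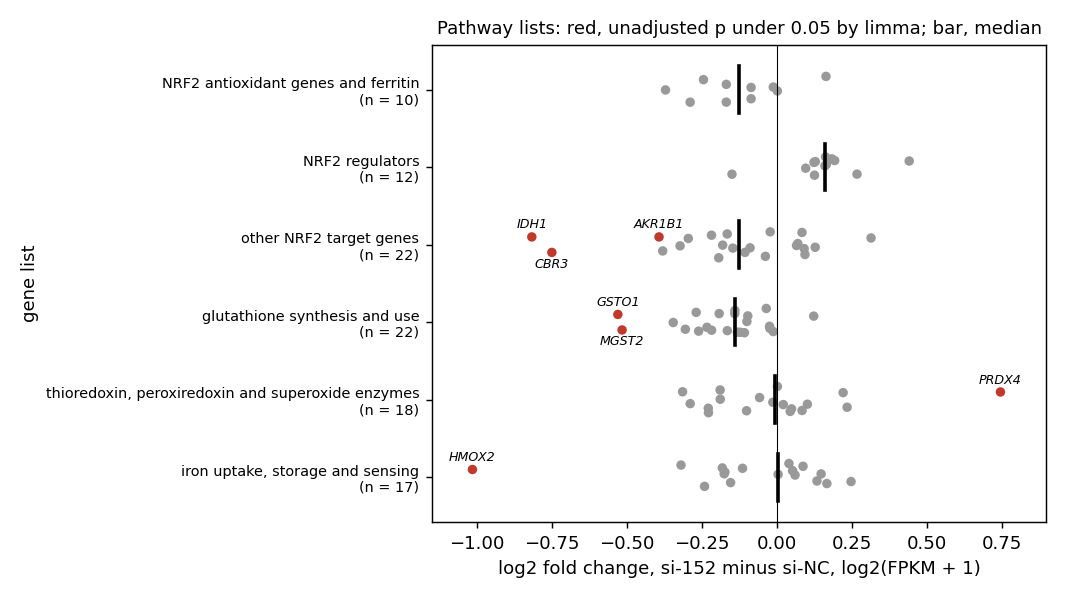
Log2 fold change between si-152 and si-NC for each tested gene of the 10 described here and of the 5 pathway lists, with a black bar for the median of a list. Red points have an unadjusted p under 0.05 by limma and are named. No red point lies among the 10 genes of the top row, and PRDX4 is the only red point above 0.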

How the data were processed

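RNA of 4 HCT116 libraries was sequenced by the authors, 2 per group, with groups and replicate numbers taken from the labels. The deposited tables hold 1 value per gene symbol and library, in a unit they do not name, which was read as FPKM, scaled by the authors for transcript length and depth, because the values have decimals, exact zeros and unequal sums. The processing notes of the authors name Trimmomatic, TopHat, HISAT2, HTSeq and DESeq, and GRCh38, without role or version, and the study's methods name DESeq for its test of differential expression. No read counts were used, so depth and counting error are unknown. Spreadsheet dates stood in place of 28 symbols, and 2 symbols occurred again. A pseudocount of 1 was added, and genes reaching 1 FPKM in 2 or more libraries entered limma 3.58.1 (R 4.3.3, mean-variance trend, Benjamini-Hochberg adjustment). limma draws each gene's variance toward that of genes of like level, so a p-value rests on the spread between the 2 replicates per group of that gene and of other genes. Fold changes on the log2(FPKM + 1) scale understate those of low genes.

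The 10 genes and the lists were chosen with earlier results of these data known. Of each list, the genes named are those with an unadjusted p under 0.05 and the 2 with the highest mean. The alternatives varied the pseudocount, filter, scaling, trend, replicate block and libraries, and were extended to the lists after seeing the data. Pseudogene counts, coordinates and transcripts are from GENCODE v29, and promoters from RefSeq.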

Additional observations from a re-analysis of the deposited data

How the results depend on the processing

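With all 4 libraries kept, the number of the 10 genes at an unadjusted p under 0.05 by limma was 0. It became 1 (HMOX1) with size factors, 1 (HMOX1) with quantile normalization and 2 with the replicate block. At an adjusted p under 0.05 it was 0 in all 11 alternatives. Over all tested genes the count at an unadjusted p under 0.05 was 492, 796 without a filter, where more genes were tested, and 310 to 724 with a library left out. The labels give the groups the same replicate numbers but do not say that a number marks a shared batch. The replicate differences of the groups correlated at 0.52 across genes. With the replicate block, 2 of the 10 genes had an unadjusted p under 0.05 by limma, NQO1 (0.0296) and HMOX1 (0.0164), and 1893 of the 11222 tested genes did.

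The sign of small differences turned with the setting, and the cause was not tested beyond the libraries left out. With quantile normalization KEAP1 had 0.0146 and FTL 0.10, and with size factors GCLC had -0.0184. Over the 4 fits that leave out a library, the log2 fold change ran from -0.26 to 0.0913 for NFE2L2, -0.0866 to 0.0633 for KEAP1, -0.38 to 0.0403 for GCLM, -0.22 to 0.22 for GCLC, -0.42 to 0.079 for TXNRD1, -0.53 to 0.0378 for FTH1 and -0.31 to 0.14 for FTL. NQO1, HMOX1 and SRXN1 held their sign in all 11 alternatives.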
